A study of Mus musculus with 16 samples.

Results

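MHC class II molecules carry peptides from proteins taken up by a cell to its surface, where CD4+ T cells read them. The 10 genes described here are H2-Aa, H2-Ab1, H2-Eb1, H2-DMa, H2-DMb1, H2-DMb2, H2-Oa, H2-Ob, Cd74 and Ciita. They were taken by gene name from a table of 54532 genes, and all 10 were among the 15257 genes that passed the filter on low counts. RNA was sequenced from cells washed out of the airways (bronchoalveolar lavage) of mice aged 8 to 10 weeks, whose strain is given as C57BL/6 in the study's design and as C56BL/6J in the strain field. Bleomycin, a DNA-damaging drug used to model lung fibrosis, was given at 4 U per kg of body weight by the oropharynx, controls received saline by the same route, and the time given is 14 days. There were 4 libraries each of bleomycin males, bleomycin females, saline males and saline females. No transgene, batch, litter or pooling is named in the labels, and where libraries did not come from separate animals the p-values measure only the spread between these libraries.

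A class II molecule is a pair of an α and a β chain, here H2-Aa with H2-Ab1 (I-A). H2-Eb1 encodes the β chain of I-E, whose α chain gene is defective in C57BL/6 mice, so that this strain has no I-E on its cells. New pairs are held by the invariant chain, the product of Cd74, until H2-DM (H2-DMa with H2-DMb1 or H2-DMb2) exchanges its last fragment for a peptide. H2-DO (H2-Oa with H2-Ob) binds H2-DM and inhibits it, and is known mainly from B cells. Ciita, the class II transactivator, binds the factors that sit on the X and Y boxes of these genes' promoters. Dendritic cells, B cells and activated macrophages are the main cells that make class II molecules, while resident alveolar macrophages make little.

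The promoter boxes are shown because they are the sequence that ties class II genes to Ciita. RefSeq promoter windows of 300 bases (250 before and 50 after a gene's start, build GRCm38.p6) were at hand for 7 of the 10 genes and not for H2-Ab1, Cd74 and Ciita. Each stretch of 60 bases below ends shortly after the Y box, is read 5′ to 3′ on the gene's own strand, and has in capitals the Y box letters TGATTGG and, where present, the X box letters (A, any 2 bases, AAC, any 2 bases, ATG). For H2-Aa the capitals further upstream are the X2 letters TGACGTCA. H2-Eb2, a neighbouring class II β chain gene, is shown for comparison.
H2-Aa, chr17:34287859-34287918, minus strand: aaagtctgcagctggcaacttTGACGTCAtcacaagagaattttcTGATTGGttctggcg
H2-Eb1, chr17:34305761-34305820, plus strand: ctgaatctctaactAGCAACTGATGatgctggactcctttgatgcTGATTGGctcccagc
H2-DMb1, chr17:34153083-34153142, plus strand: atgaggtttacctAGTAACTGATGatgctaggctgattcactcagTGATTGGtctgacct
H2-DMb2, chr17:34145112-34145171, plus strand: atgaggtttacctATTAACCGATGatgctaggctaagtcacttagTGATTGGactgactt
H2-Oa, chr17:34092289-34092348, plus strand: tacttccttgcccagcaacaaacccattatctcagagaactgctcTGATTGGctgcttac
H2-Ob, chr17:34238801-34238860, plus strand: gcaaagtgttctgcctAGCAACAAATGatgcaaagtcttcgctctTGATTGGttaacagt
H2-Eb2, chr17:34325528-34325587, plus strand: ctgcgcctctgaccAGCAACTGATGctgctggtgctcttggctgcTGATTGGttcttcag

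The Y box letters were in the windows of 6 of the 7 genes, 45 to 92 bases before the start, and on either strand in 7.82% of 32851 mouse promoter windows. The X box letters were in 2.70% and the X2 letters in 1.79% of all windows. An X box followed on the same strand by a Y box within 40 bases was found in 7 of the 32851 windows (0.0213%), of which 4 belong to H2-Eb1, H2-DMb1, H2-DMb2 and H2-Ob, with 18 to 21 bases between the boxes, and 1 to H2-Eb2. The windows of H2-DMa held none of these letters, but they lie 9664 and 12350 bases upstream of the gene start in the deposited table, while the H2-DMb2 window lies 1942 bases inside it. The letters were chosen after the genes' windows had been read, so the shares describe the sequence and test nothing.

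The library totals ran from 21240382 to 24225885 counts in bleomycin males, 18871879 to 24567609 in bleomycin females, 16471022 to 19207944 in saline males and 16385784 to 21393539 in saline females. Siglecf, a defining marker of resident alveolar macrophages, was present in every group, at 167 ± 51.4 CPM in bleomycin males, 185 ± 37.7 CPM in bleomycin females, 550 ± 26.0 CPM in saline males and 581 ± 6.35 CPM in saline females (SD, n = 4). CPM are counts on a common library total, scaled by edgeR's TMM factors for composition. Among the bleomycin libraries C33, C49 and C50 have codes apart from the others (C65 to C69), and C68 held the lowest B cell marker level, 2.34, against 3.09 to 4.78 in the other bleomycin libraries (mean of log2(CPM + 1)).

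The 10 genes together took 0.530 ± 0.0919% of all counts in bleomycin males and 0.544 ± 0.0777% in bleomycin females, against 0.180 ± 0.0202% in saline males and 0.170 ± 0.0335% in saline females. Averaged over the sexes, 9 of the 10 rose under bleomycin and H2-DMa fell, by edgeR's quasi-likelihood test with Benjamini-Hochberg adjustment over all genes, called below 0.05. In the same comparison 63.6% of all tested genes were called (34.7% higher and 28.8% lower), so a call is common among genes here. The median log2 fold change, a signed value that TMM scaling holds near 0 over all genes, was 2.07 over the 10 genes and 0.01 over all tested genes. In males 9 rose and 1 fell, where 56.5% of all genes were called (31.5% higher and 24.9% lower). In females 8 rose, 1 fell and H2-DMb2 was not called, where 43.9% of all genes were called (26.7% higher and 17.2% lower). The bleomycin and saline libraries did not overlap for 9 of the 10 genes in males (54.4% of all genes), 8 of them higher (29.8%) and 1 lower (24.6%), and for 7 in females (39.1%), all higher (23.8%). Over all 16 libraries the treatments did not overlap for 7 of the 10 genes, all higher (29.5% of all genes in either direction, 19.2% higher). Lavage cells are a mixture, and fewer cells of a type cannot be told apart from less RNA per cell.

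**Figure D1:**
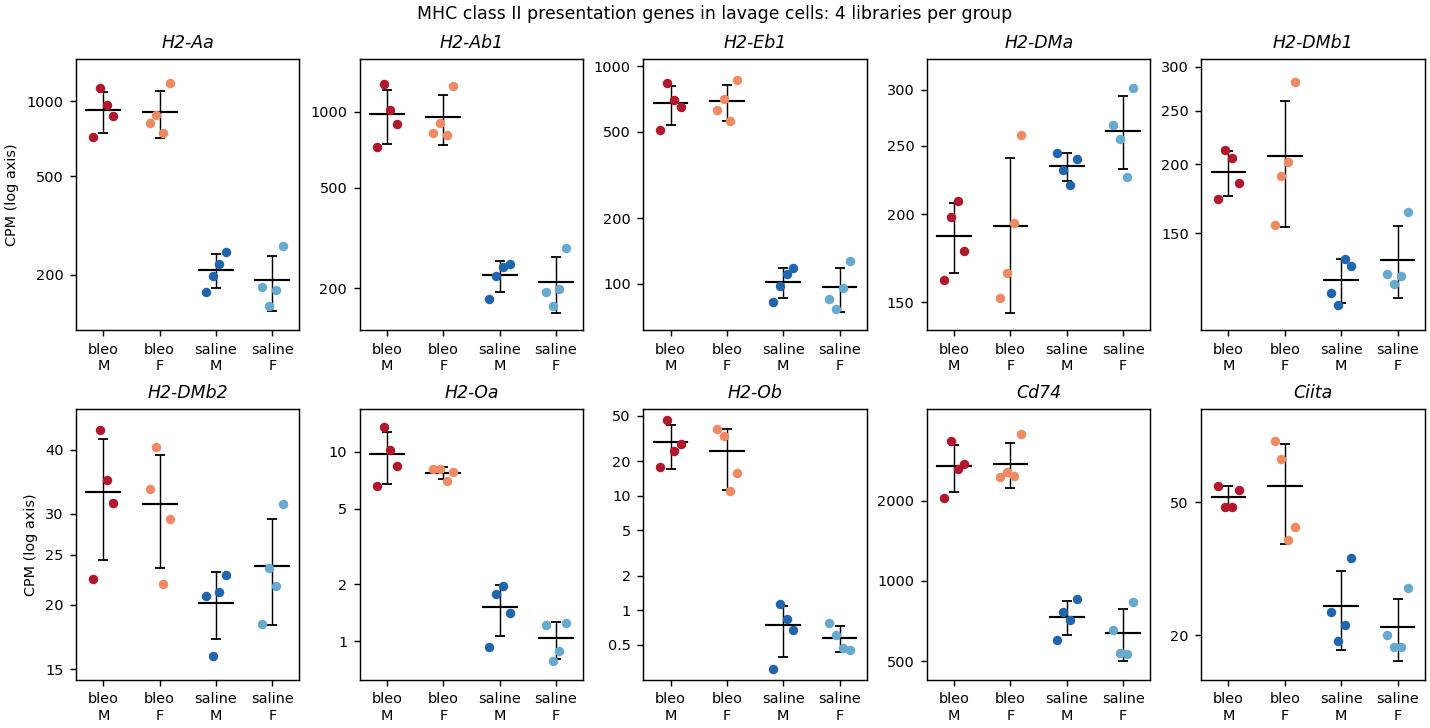
Level of each gene in CPM (log axis, a different range in each panel) in bleomycin males, bleomycin females, saline males and saline females; points are libraries, lines the mean and SD (n = 4). All 8 bleomycin libraries lie above all 8 saline libraries for the I-A chains, H2-Eb1, Cd74, H2-Oa, H2-Ob and Ciita, and the H2-DMa points lie lower under bleomycin in males.

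Per kilobase of gene (FPKM), the scale on which genes can be set against each other, Cd74 led in every group, at 1894 ± 371 in bleomycin males and 1924 ± 351 in bleomycin females, against 518 ± 73.1 in saline males and 452 ± 100 in saline females. Under bleomycin the next were H2-Ab1 (593 ± 141 in males, 570 ± 122 in females), H2-Eb1 (564 ± 112 and 575 ± 104) and H2-Aa (486 ± 90.0 and 475 ± 97.6), whose ranges over libraries overlapped. Then came H2-DMb1 and H2-DMa, which overlapped each other but not the chains above them. H2-DMb2, H2-Ob, H2-Oa and Ciita stood last, at 5.36 to 19.2 FPKM on average in males and 5.79 to 18.1 FPKM in females.

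Under saline the order was another. H2-DMa ranked directly below Cd74, at 142 ± 6.88 FPKM in saline males and 159 ± 19.1 FPKM in saline females, while under bleomycin it ranked 6 of 10. Below it came H2-Ab1, H2-Aa, H2-Eb1 and H2-DMb1 in saline males, and H2-Ab1, H2-Aa, H2-DMb1 and H2-Eb1 in saline females. Each of these overlapped the gene ranked directly above it, while the lowest of them did not overlap H2-DMb2, which came next. At the foot of both saline orders Ciita, H2-Oa and H2-Ob did not overlap their neighbours, and H2-Ob was last at 0.234 ± 0.109 FPKM in saline males and 0.183 ± 0.0475 FPKM in saline females.

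The chains of I-A rose together. H2-Aa, the I-A α chain, stood at 716, 1132, 963 and 872 CPM in bleomycin males and 816, 878, 744 and 1182 CPM in bleomycin females, against 171, 198, 222 and 247 CPM in saline males and 179, 150, 175 and 261 CPM in saline females. The lowest bleomycin library was far above the highest saline library, and the log2 fold change was 2.19 (SE 0.13, adjusted p = 6.08e-11), or 4.56-fold. SE here and below is approximate, taken from the F statistic.

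H2-Ab1, the I-A β chain, stood at 727, 1291, 1012 and 893 CPM in bleomycin males and 822, 902, 812 and 1259 CPM in bleomycin females, against 182, 224, 244 and 250 CPM in saline males and 193, 171, 198 and 289 CPM in saline females. It rose like its partner, by 2.14 (SE 0.14, adjusted p = 1.57e-10). Within groups the I-A chains tracked each other closely, with a Pearson r of 0.98 over the 16 libraries after the group means were subtracted. The log2 ratio of H2-Aa to H2-Ab1 per length was -0.27 ± 0.08 in bleomycin males and -0.30 ± 0.07 in saline males, a difference of 0.03 (exact permutation p = 0.571, adjusted 0.610). In females it was -0.26 ± 0.05 under bleomycin and -0.35 ± 0.04 under saline, a difference of 0.09 (exact permutation p = 0.0571, adjusted 0.0762), which did not pass.

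H2-Eb1 stood at 511, 841, 699 and 650 CPM in bleomycin males and 632, 708, 563 and 863 CPM in bleomycin females, against 82.0, 98.0, 110 and 118 CPM in saline males and 85.3, 76.5, 95.4 and 127 CPM in saline females. Its log2 fold change of 2.79 (SE 0.13, adjusted p = 1.94e-12), or 6.90-fold, exceeded that of the I-A β chain. The difference was tested as the log2 ratio of H2-Eb1 to H2-Ab1 within each library, which does not depend on how libraries are scaled. The ratio was -0.06 ± 0.07 in bleomycin males and -0.68 ± 0.04 in saline males, and 0.02 ± 0.10 in bleomycin females and -0.68 ± 0.06 in saline females. The groups did not overlap in either sex, with a difference of 0.61 in males and 0.69 in females (exact two-sided permutation p = 0.0286 in each, the smallest that 4 against 4 libraries allow, adjusted 0.0457 over 16 ratio tests). H2-Eb1 RNA thus lay below H2-Ab1 RNA per length in all 8 saline libraries, at 0.605 to 0.666 of it, and at 0.900 to 1.09 of it in the bleomycin libraries. The pseudogene of the missing partner, H2-Ea-ps, had at most 3 counts in any library and was not tested.

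Cd74 stood at 2056, 3360, 2628 and 2751 CPM in bleomycin males and 2455, 2563, 2468 and 3547 CPM in bleomycin females, against 601, 765, 712 and 852 CPM in saline males and 656, 537, 532 and 834 CPM in saline females. The invariant chain thus rose in every bleomycin library above every saline library, by 1.99 on the log2 scale (SE 0.12, adjusted p = 1.05e-10). Its log2 ratio to the sum of the I-A chains was 0.82 ± 0.10 in bleomycin males and 1.06 ± 0.10 in saline males, a difference of -0.24 (exact permutation p = 0.0571, adjusted 0.0762). In females it was 0.89 ± 0.06 under bleomycin and 0.97 ± 0.14 under saline, a difference of -0.09 (exact permutation p = 0.314, adjusted 0.387). A change in the balance of invariant chain to I-A was not detected with 4 libraries a group.

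The H2-DM genes moved least, and its chains moved in opposite directions. H2-DMa, the α chain, stood at 161, 198, 209 and 177 CPM in bleomycin males and 152, 165, 194 and 259 CPM in bleomycin females, against 244, 231, 220 and 240 CPM in saline males and 268, 255, 226 and 301 CPM in saline females. The male groups did not overlap, while in females C69, at 259 CPM, lay within the saline range. The log2 fold change was -0.39 (SE 0.09, adjusted p = 0.00168) over the sexes and -0.45 (SE 0.13, adjusted p = 0.0109) in females. In males it was -0.33 (SE 0.13, adjusted p = 0.0458). Leaving out any single male library except C66 ended that call, with log2 fold changes between -0.36 and -0.26. In the GENCODE M21 models, exons of H2-DMa overlap Brd2 on the other strand (8.43% of the 50-base words of H2-DMa), while the H2-DMa start in the deposited table lies downstream of Brd2.

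H2-DMb1, a β chain, stood at 173, 212, 205 and 185 CPM in bleomycin males and 155, 190, 201 and 282 CPM in bleomycin females, against 117, 111, 135 and 131 CPM in saline males and 126, 121, 126 and 164 CPM in saline females. It rose by 0.64 (SE 0.10, adjusted p = 2.48e-05), with 1 bleomycin female (C49) below the highest saline female (C77). H2-DMb2, the other β chain, stood at 22.5, 43.6, 34.9 and 31.6 CPM in bleomycin males and 33.5, 40.5, 22 and 29.3 CPM in bleomycin females, against 20.8, 15.9, 21.2 and 22.9 CPM in saline males and 18.4, 23.5, 21.8 and 31.4 CPM in saline females. Its groups overlapped in both sexes. It rose in males by 0.71 (SE 0.20, adjusted p = 0.00663), while in females the change of 0.40 (SE 0.20, 2 SE either side -0.01 to 0.81, adjusted p = 0.122) did not pass. Without TMM scaling H2-DMb2 also missed the threshold in males, at 0.48 (adjusted p = 0.0638), and over the sexes, at 0.35 (adjusted p = 0.0505). H2-DMb1 and H2-DMb2 are near copies: 22.7% of the 50-base words in H2-DMb1 transcripts occur in H2-DMb2 transcripts, so how reads were divided between them is uncertain.

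The balance of α to β chain RNA of H2-DM changed sides. H2-DMa relative to the sum of its β chain genes per length was 0.718 to 0.803 in bleomycin males and 0.664 to 0.797 in bleomycin females, against 1.30 to 1.67 in saline males and 1.41 to 1.70 in saline females. The log2 difference was -0.99 in males and -1.05 in females, with no overlap in either sex (exact permutation p = 0.0286, adjusted 0.0457, in each). The ratio needs no scaling of the library, but reads shared by the β chain genes can still move it, since the genes differ in length (1485 bases for H2-DMb1 and 1710 for H2-DMb2) and shared reads may have been dropped.

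The H2-DO genes rose from low saline levels. H2-Oa, the α chain, stood at 6.63, 13.5, 10.3 and 8.41 CPM in bleomycin males and 8.14, 8.07, 6.99 and 7.79 CPM in bleomycin females, against 0.930, 1.77, 1.96 and 1.40 CPM in saline males and 1.22, 0.782, 0.893 and 1.25 CPM in saline females. All bleomycin libraries were above all saline libraries, and the log2 fold change was 2.79 (SE 0.18, adjusted p = 1.48e-10). Exons of H2-Oa overlap the antisense gene BC051537, and whether counting used strand is not given in the sources used here. BC051537 itself had 0 to 2 counts in bleomycin libraries and 0 to 1 in saline libraries.

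H2-Ob, the β chain, stood at 17.8, 45.9, 24.3 and 28.4 CPM in bleomycin males and 38.2, 33.5, 11 and 15.6 CPM in bleomycin females, against 0.310, 1.14, 0.833 and 0.677 CPM in saline males and 0.777, 0.609, 0.473 and 0.454 CPM in saline females. These rest on 210 to 876 counts per bleomycin library and 6 to 20 counts per saline library. Its log2 fold change of 5.35 (SE 0.33, adjusted p = 8.02e-11) was the largest of the 10, and it also varied most between bleomycin libraries, with an SD of log2 CPM of 0.57 in males and 0.87 in females. Without C33, C49 and C50 it was 4.94 (SE 0.21, adjusted p = 4.89e-13).

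H2-DO RNA therefore rose relative to H2-DM RNA over the mixture of cells. Whether the same cells held both was not tested. H2-Oa to H2-DMa per length was 0.0513 to 0.0852 in bleomycin males and 0.0376 to 0.0667 in bleomycin females, against 0.00476 to 0.0111 in saline males and 0.00383 to 0.00569 in saline females. H2-Ob to the sum of the H2-DM β chains was 0.0437 to 0.0866 in bleomycin males and 0.0234 to 0.0976 in bleomycin females, against 0.00108 to 0.00431 in saline males and 0.00112 to 0.00257 in saline females. Neither ratio overlapped between treatments (log2 differences of 3.02 in males and 3.40 in females for the α chains, 4.70 and 4.68 for the β chains, exact permutation p = 0.0286 and adjusted 0.0457 in each). In every bleomycin library H2-DO RNA per length was at most 0.0976 of H2-DM RNA.

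Ciita, the transactivator, rose less than the I-A chains. It stood at 55.9, 48.3, 48.2 and 54.2 CPM in bleomycin males and 76, 67.2, 38.4 and 42.2 CPM in bleomycin females, against 23.5, 19.2, 21.5 and 33.9 CPM in saline males and 20.0, 18.5, 18.4 and 27.7 CPM in saline females. No bleomycin library overlapped a saline library, and the log2 fold change was 1.24 (SE 0.15, adjusted p = 7.34e-07). Relative to the sum of the I-A chains per length, Ciita was lower under bleomycin by 1.01 on the log2 scale in males, at -7.63 ± 0.42 in bleomycin males and -6.62 ± 0.32 in saline males. In females the difference was -0.84, at -7.54 ± 0.64 in bleomycin females and -6.70 ± 0.10 in saline females. The groups did not overlap in either sex (exact permutation p = 0.0286, adjusted 0.0457, in each).

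**Figure D2:**
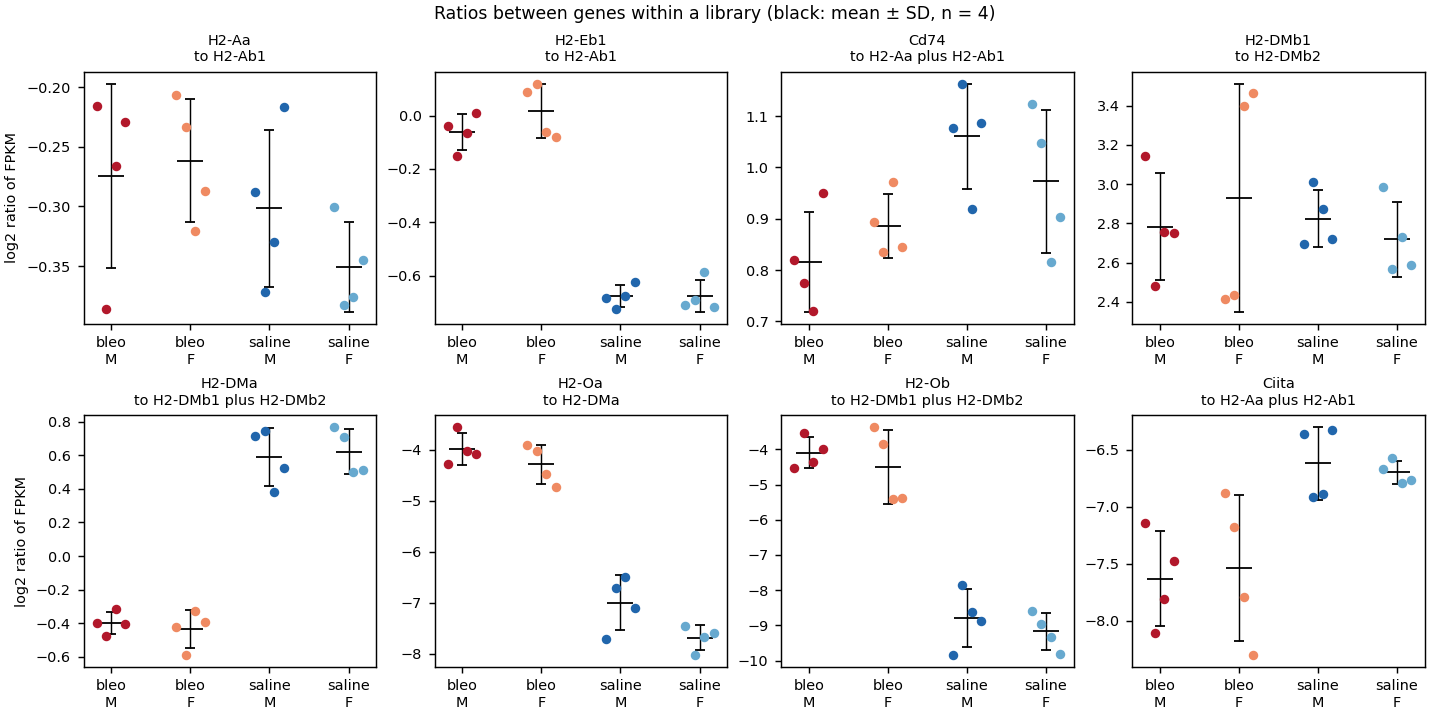
Log2 ratio of FPKM between genes within a library for bleomycin males, bleomycin females, saline males and saline females; points are libraries, black marks the mean and SD (n = 4). For 5 of the 8 ratios the bleomycin and saline libraries do not overlap in either sex: H2-Eb1 to H2-Ab1, H2-DMa to its β chains, H2-Oa to H2-DMa, H2-Ob to the H2-DM β chains, and Ciita to the I-A chains.

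Within groups, Ciita did not follow the chains. After group means were subtracted, the Pearson r over the 16 libraries was 0.21 between Ciita and H2-Aa, 0.05 between Ciita and H2-Ab1 and 0.10 between Ciita and Cd74, against 0.93 between H2-Aa and Cd74. In bleomycin females Ciita was highest in C49 and C50, while H2-Aa, H2-Ab1, H2-Eb1 and Cd74 were highest in C69, which had 42.2 CPM of Ciita. These r share libraries and depth and are given as descriptions.

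Likeness of this kind was then sought among other genes. The 3 protein-coding genes most like H2-Aa were H2-Ab1 (r = 0.98), H2-Eb1 (0.98) and Cd74 (0.93) of 9166 candidates with at least 10 CPM in their highest group. Those most like Cd74 were Emb (0.94), H2-Aa and H2-Ab1, and those most like H2-Eb1 were H2-Aa, H2-Ab1 and Cd74 (0.88), while Emb (0.93) was the third for H2-Ab1. H2-DMa was nearest to Clec4a2 (0.95), Psen2 (0.94) and Arpc4 (0.94), and H2-DMb1 to Ctsh (0.95), a cathepsin gene, Yeats4 (0.93) and Sdhd (0.92). H2-DMb2 was nearest to Coro1a (0.93), which encodes an actin-binding protein of leukocytes, then to Cnp (0.88) and Zfp41 (0.87). H2-Oa was nearest to Samsn1 (0.88), Nedd4l (0.84) and Socs1 (0.84). H2-Ob was near to Atp2a3 (0.96) and Adam19 (0.96), and Ciita to Tnks1bp1 (0.85), Gtpbp1 (0.84) and Rabep2 (0.84). H2-DMa and H2-DMb1 were alike (0.86) although the treatment moved them in opposite directions, while r between H2-DMa and H2-Ob was -0.37.

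Markers of other cells moved with the treatment. In the comparison averaged over the sexes, used for these calls, 63.6% of all tested genes were called (34.7% higher and 28.8% lower). All 13 B cell markers rose, and their summed level was 135 to 519 CPM in bleomycin males and 75.8 to 404 CPM in bleomycin females, against 0.882 to 1.49 CPM in saline males and 1.05 to 1.66 CPM in saline females. Cd79b, Pax5, Pou2af1, Ebf1, Ighd and Fcmr had 0 counts in all 4 saline male libraries. Genes this low under saline passed the filter through the bleomycin libraries, so that their rise was set by it. Of 12 dendritic cell markers 11 rose and Batf3 was not called, with summed levels of 709 to 1122 CPM in bleomycin males and 625 to 844 CPM in bleomycin females, against 143 to 251 CPM in saline males and 157 to 179 CPM in saline females. In males alone 10 of these rose and 0 fell (31.5% and 24.9% of all genes). In females alone 11 rose and 1 fell (26.7% and 17.2% of all genes).

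All 12 genes that mark monocytes and the macrophages made from them rose, to summed levels of 6987 to 12124 CPM in bleomycin males and 5257 to 9234 CPM in bleomycin females, against 522 to 617 CPM in saline males and 478 to 512 CPM in saline females. Ly6c2, among the 12, had 0 counts in all saline female libraries, so that a fall in females was not possible. Of 12 resident alveolar macrophage markers 10 fell and 0 rose, while Marco and Chil3 were not called. Their summed level, in which Chil3 weighs heavily, was 12495 to 20554 CPM in bleomycin males and 12321 to 25390 CPM in bleomycin females, against 18950 to 20907 CPM in saline males and 24705 to 27862 CPM in saline females. Of 12 T cell markers 11 rose and Cd2 fell (-1.10, SE 0.09). Their mean log2(CPM + 1) was 4.61 to 5.86 in bleomycin males and 4.40 to 5.62 in bleomycin females, against 1.05 to 1.26 in saline males and 0.91 to 1.03 in saline females. The summed levels, which Cd2 carries under saline, were 408 to 790 CPM in bleomycin males and 372 to 671 CPM in bleomycin females, against 267 to 277 CPM in saline males and 241 to 270 CPM in saline females. Cd3e, Cd4, Trac and Trbc2 are among the 11 and were below 1 CPM in every saline library. They passed the filter through the bleomycin libraries, which fixed their direction. The rest of the 11 were also low under saline, where Cd2 carries the sum, so the filter may have fixed their direction too. The count of 11 is given as a description. Of 8 markers of type 2 epithelium, a lung cell that can carry class II, 6 rose and Epcam fell (-2.66, SE 0.11). Their summed levels, in which Epcam weighs heavily under saline, were 150 to 174 CPM in bleomycin males and 140 to 176 CPM in bleomycin females, against 182 to 215 CPM in saline males and 208 to 251 CPM in saline females. The part of any of these cell types in the bleomycin changes was not tested.

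Within the 8 bleomycin libraries, where the treatment is the same, the 10 genes related differently to these markers. Each gene's log2(CPM + 1) was set against the mean log2(CPM + 1) of each of the 6 marker lists, which gave 60 relations with exact permutation p over 40320 pairings, and 6 passed after adjustment. H2-Ob followed the B cell markers, with Pearson r = 0.98 (exact permutation p = 0.000124, adjusted 0.00694) and Spearman rho = 0.95 (exact permutation p = 0.00114, adjusted 0.0335). Without C33 and C68, the libraries farthest from the median marker level, r was again 0.98. H2-Ob also rose with dendritic cell markers (r = 0.95, exact permutation adjusted p = 0.00804, rho = 0.86 with adjusted p = 0.0918, r = 0.85 without C68 and C69). It rose with T cell markers as well (r = 0.94, exact permutation adjusted p = 0.00694, rho = 0.93 with adjusted p = 0.0335, r = 0.88 without C68 and C69). With resident alveolar macrophage markers it ran the other way (r = -0.95, exact permutation adjusted p = 0.00694, rho = -0.95 with adjusted p = 0.0335, r = -0.87 without C68 and C69).

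H2-DMb2 was the other gene with relations that passed: r = 0.92 with B cell markers (exact permutation adjusted p = 0.00804, rho = 0.93 with adjusted p = 0.0335) and r = 0.90 with dendritic cell markers (exact permutation adjusted p = 0.0186, rho = 0.90 with adjusted p = 0.0548). Without C33 and C68 the first was 0.79, and without C68 and C69 the other was 0.91. H2-DMb1, its near copy, had r = -0.27 with B cell markers (exact permutation adjusted p = 0.724), and H2-DMa had r = -0.28 (exact permutation adjusted p = 0.724). For H2-Aa the r with B cell markers was 0.41 (exact permutation adjusted p = 0.599), and it turned to -0.41 without C33 and C68. For Ciita it was 0.63 (exact permutation adjusted p = 0.362), and for H2-Oa 0.72 (exact permutation adjusted p = 0.214). With monocyte markers r was 0.68 for H2-Aa, 0.69 for H2-Ab1, 0.60 for H2-Eb1 and 0.53 for Cd74. None of these passed (exact permutation adjusted p = 0.269, 0.269, 0.364 and 0.447). Without C49 and C66 they were 0.92, 0.90, 0.90 and 0.85. The marker lists of B cells, dendritic cells and T cells rise and fall together over these libraries, so their relations to H2-Ob cannot be told apart, and within 1 sex 4 libraries are too few for a correlation. With each sex centred on its own mean 7 relations passed.

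**Figure D3:**
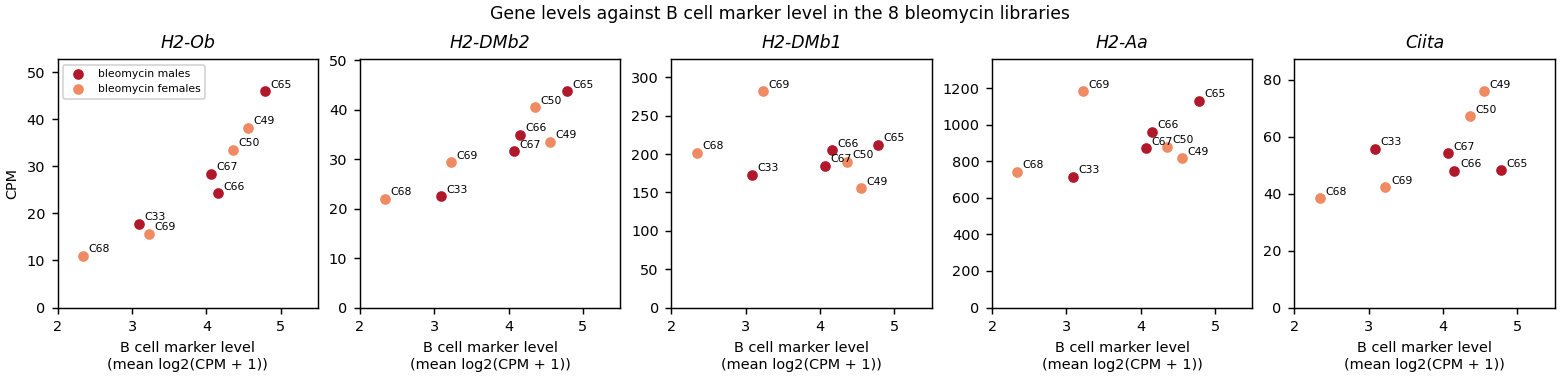
Level of H2-Ob, H2-DMb2, H2-DMb1, H2-Aa and Ciita (CPM) against the B cell marker level (mean log2(CPM + 1) of 13 genes) in the 8 bleomycin libraries, labelled by code. H2-Ob (r = 0.98) and H2-DMb2 (r = 0.92) rise with the marker level, while H2-DMb1 (r = -0.27), H2-Aa (r = 0.41) and Ciita (r = 0.63) had no relation that passed. Each r was computed on log2(CPM + 1), not on the CPM shown.

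Males and females were set against each other within each treatment. Under bleomycin edgeR called 0 of the 10 genes between males and females (0.059% of all genes were called, 0.0328% higher and 0.0262% lower in males), with 0 at an unadjusted p below 0.05 and 0 by DESeq2 or limma voom. Bleomycin males and bleomycin females overlapped for all 10 genes (1.29% of all genes did not overlap, 0.741% higher and 0.551% lower in males). The differences, males minus females, ran from -0.12 for Ciita to 0.32 for H2-Oa on the log2 scale. The 2 SE intervals were -0.33 to 0.38 for H2-Aa and -0.41 to 0.89 for H2-Ob, so that sex differences of that size remain possible. A fit without C33, C49 and C50 was chosen after the data were seen, and its bleomycin females are C68 and C69 alone. There H2-Ob was higher in bleomycin males than in bleomycin females by 1.33 (SE 0.25, adjusted p = 0.00523). That fit called 670 of all genes between these groups, against 9 with all libraries. The B cell marker level (mean log2(CPM + 1)) was 2.34 in C68 and 3.23 in C69, against 4.07 to 4.78 in the males C65 to C67. Whether the H2-Ob difference remains at equal marker level was not tested. Under saline edgeR also called 0 of the 10 (0.269% of all genes, 0.144% higher and 0.125% lower in males), with 0 at an unadjusted p below 0.05 and 0 by DESeq2 or limma voom, and saline males and saline females overlapped for all 10 genes (13.1% of all genes did not overlap, 6.85% higher and 6.3% lower in males). The widest differences were 0.56 for H2-Oa (SE 0.28) and 0.34 for H2-Ob (SE 0.64).

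The bleomycin effect itself did not differ detectably between the sexes for any of the 10. The interaction called 0 of them by edgeR (0.00655% of all genes), with 0 at an unadjusted p below 0.05 and 0 by DESeq2 or limma voom. The effect in males minus the effect in females ran from -0.34 for Ciita (SE 0.29) to 0.31 for H2-DMb2 (SE 0.29). For H2-Ob the interval was -1.50 to 1.30, which leaves room for a difference of more than 2-fold.

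**Figure D4:**
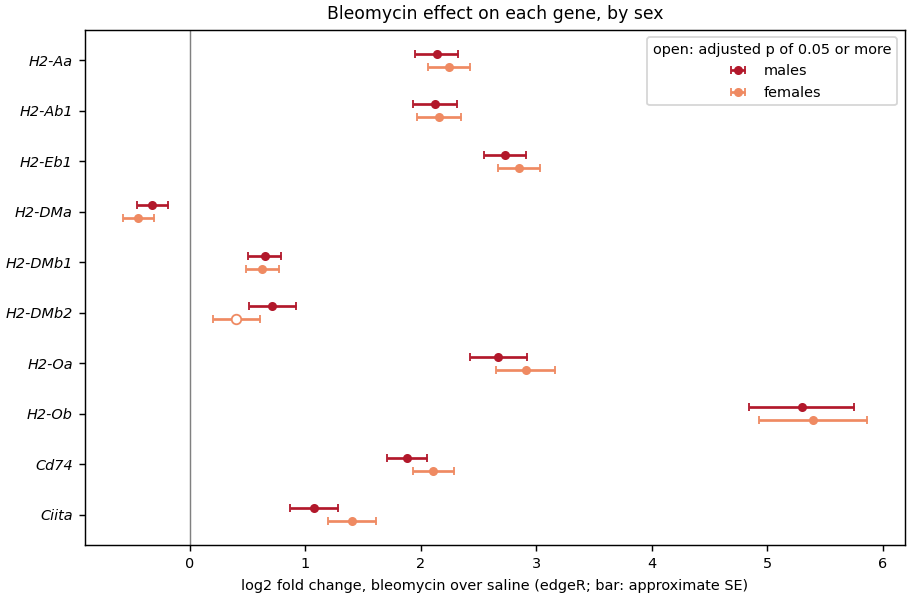
Log2 fold change of bleomycin over saline for each gene in males and in females, with the approximate SE; open points have an adjusted p of 0.05 or more. H2-DMa is the 1 gene left of 0, and H2-DMb2 in females is the 1 open point.

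Genes around the pathway are given from lists written from general knowledge, in the comparison averaged over the sexes. Their counts stand beside 63.6% of all tested genes called there, 34.7% higher and 28.8% lower. Of 6 tested genes of the class II region outside the 10, 5 rose and Brd2, a bromodomain gene, fell by 0.17 (SE 0.05), with a median log2 change of 0.63. H2-Eb2 stood at 15.7 ± 5.21 CPM in bleomycin males and 12.5 ± 3.16 CPM in bleomycin females, against 0.252 ± 0.171 CPM in saline males and 0.111 ± 0.0636 CPM in saline females. It passed the filter on low counts through the bleomycin libraries, which fixed its direction, so no fold is given. The others were genes of the class I peptide supply: the peptide transporter Tap1 (1.41, SE 0.07) and the immunoproteasome subunits Psmb9 (0.85, SE 0.10) and Psmb8 (0.42, SE 0.10) were the largest changes among them.

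Of 20 tested genes of class II transcription 12 rose and 3 fell, with a median of 0.46. Socs1, a feedback inhibitor of interferon signalling, rose by 3.76 (SE 0.25), Zbtb46, a factor of classical dendritic cells, by 2.27 (SE 0.20), Bcl6 by 0.95 (SE 0.12) and Irf4 by 0.92 (SE 0.16). The RFX subunits that bind the X box were not called: Rfx5 stood at 0.09 (SE 0.09), Rfxap at 0.03 (SE 0.09) and Rfxank at 0.10 (SE 0.09). Of the NF-Y subunits that bind the Y box, Nfyb rose by 0.29 (SE 0.08), Nfyc fell by 0.16 (SE 0.05) and Nfya stood at -0.09 (SE 0.05). Creb1 (-0.21, SE 0.05) and Prdm1, a repressor of Ciita (-0.40, SE 0.09), fell as well. Ifng, the cytokine that induces Ciita, had at most 12 counts in any library and was not tested, while 9 of 10 tested genes of the interferon gamma response rose and Gbp7 fell by 0.14 (SE 0.06), with a median of 1.92. The GTPase gene Gbp3 rose by 2.54 (SE 0.10) and the chemokine gene Cxcl10 by 2.37 (SE 0.22). The GTPase genes Tgtp1 and Iigp1 are among the 9 but passed the filter through the bleomycin libraries, which fixed their direction. Tgtp1 stood at 6.20 ± 2.52 CPM in bleomycin males and 4.09 ± 1.71 CPM in bleomycin females, and was at most 0.105 CPM in any saline library. Iigp1 stood at 3.93 ± 1.38 CPM in bleomycin males and 3.84 ± 1.71 CPM in bleomycin females, and was at most 0.111 CPM in any saline library.

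Of 12 genes of antigen processing 10 rose and Asph fell by 0.47 (SE 0.06), with a median of 1.48. The protease genes Lgmn (2.42, SE 0.10), Ctsb (1.99, SE 0.07) and Ctsl (1.93, SE 0.09) were among them. Ctse, another protease gene, stood at 6.58 ± 1.37 CPM in bleomycin males and 7.01 ± 2.61 CPM in bleomycin females and was at most 0.436 CPM in any saline library, so that it too passed the filter through the bleomycin libraries. Ctss, whose protease cuts the invariant chain in mouse antigen-presenting cells, rose by 1.46 (SE 0.09), a value picked after it was seen. Of 13 genes of class II traffic and turnover 10 rose and March8 fell by 0.19 (SE 0.06), with a median of 0.41, led by Cd63 (3.11, SE 0.14), Lamp1 (0.86, SE 0.06), Arl8b (0.84, SE 0.06) and Rab7 (0.63, SE 0.07), which belong to late endosomes and lysosomes. March1, whose product marks surface class II for breakdown, rose by 0.57 (SE 0.07). Of 8 tested costimulatory and inhibitory ligand genes 4 rose and Icosl fell by 0.43 (SE 0.09), with a median of 0.16, a share of calls close to that of all genes. Cd40 rose by 3.53 (SE 0.22), Cd86 by 2.08 (SE 0.09) and Icam1 by 0.51 (SE 0.08), while Cd80 stood at 0.12 (SE 0.07) and was not called.

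On the T cell side all 10 genes of the T cell receptor list rose. They were Cd4, Lag3, Cd3e, Trac, Trbc1, Trbc2, Cd28, Ctla4, Icos and Cd40lg. The products of Cd28, Ctla4, Icos and Cd40lg do not themselves read class II. All 10 were below 1 CPM in every saline library and passed the filter through the bleomycin libraries. Cd4, whose product binds class II itself, stood at 27.9 ± 8.79 CPM in bleomycin males and 26.6 ± 15.3 CPM in bleomycin females, against 0.408 ± 0.241 CPM in saline males and 0.128 ± 0.146 CPM in saline females. The receptor constant gene Trac stood at 36.4 ± 16.2 CPM in bleomycin males and 24.7 ± 9.89 CPM in bleomycin females, and was at most 0.277 CPM in any saline library. Trbc1 and Trbc2 are near copies whose reads may have been divided uncertainly, and were at most 0.284 and 0.242 CPM in any saline library. Ctla4 had 0 counts in all saline libraries and stood at 6.91 ± 3.59 CPM in bleomycin males and 5.99 ± 2.42 CPM in bleomycin females. The filter fixed the direction of Ctla4 as well, so no fold is given. Lag3, an inhibitory receptor for class II, stood at 4.19 ± 1.02 CPM in bleomycin males and 4.26 ± 1.53 CPM in bleomycin females, against 0.374 ± 0.0744 CPM in saline males and 0.211 ± 0.103 CPM in saline females. Folds of genes this low under saline rest on the prior count and are not given.

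The small changes in these lists depend on scaling. With library totals alone the median log2 change of all genes was -0.20, and 34.7% of 10724 called genes were higher, against 54.6% of 9700 with TMM. All 10 class II genes kept their direction there, with H2-DMa at -0.61 and H2-DMb1 at 0.41. Counts then were 3 risen and 1 fallen for the class II region, 11 and 5 for transcription, 9 and 2 for processing, 7 and 3 for traffic, 3 and 3 for costimulation, 10 and 0 for T cell receptors and 9 and 1 for the interferon gamma response. Of the genes called with either scaling, Ap1m1, Ap2m1, Vps18 and Cd83 changed sign. Rfx5 (-0.11), Rfxap (-0.19), Rfxank (-0.11) and Cd80 (-0.10), called with neither, were below 0 with library totals and above 0 with TMM.

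**Figure D5:**
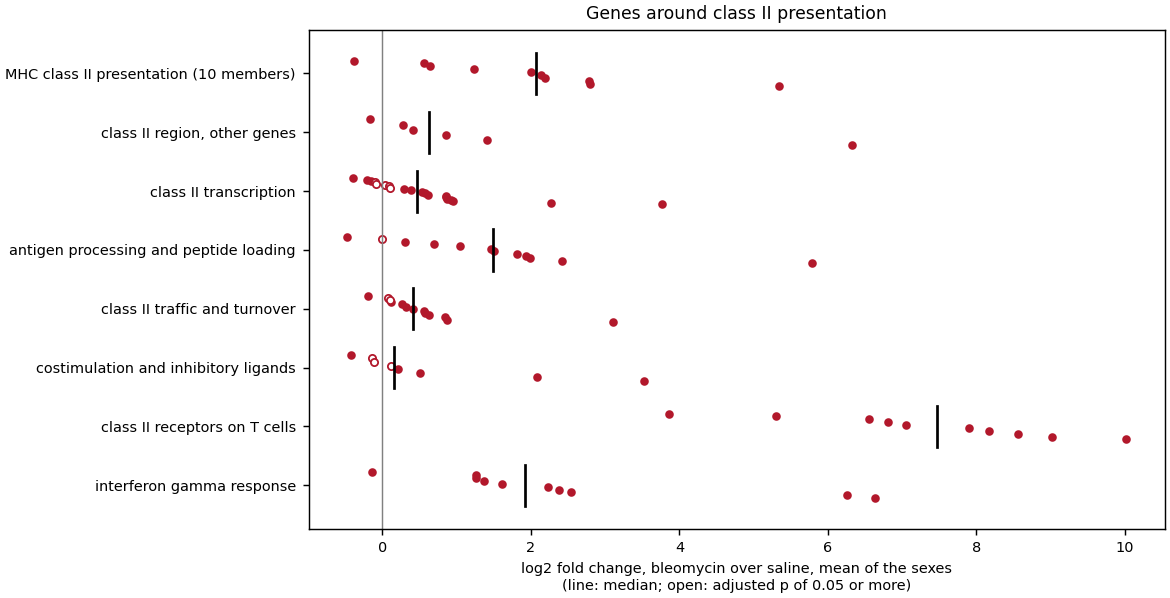
Log2 fold change of bleomycin over saline (mean of the sexes) for the 10 class II genes and the 7 lists around them; each point is a gene, filled where the adjusted p is below 0.05, and the line is the median of the list. The median is 2.07 for the 10 genes and 0.16 for costimulatory and inhibitory ligands; points beyond 5 other than H2-Ob, and the whole T cell receptor list, are fitted values of genes near 0 under saline and are no measure of size.

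The authors' deposited tables, which list genes with an unadjusted p up to 0.05, hold all 10 genes for all bleomycin against all saline libraries and for males, and 9 for females, where H2-DMb2 is not listed. In the authors' deposited table for males H2-Ob is at 5.30 and H2-DMa at -0.33, and in that for females H2-Ob is at 5.40 and H2-DMa at -0.46 on the log2 scale. For bleomycin males against bleomycin females the authors' deposited table lists 0 of the 10. For saline males against saline females it lists H2-DMa alone, at -0.18 with an adjusted p of 0.139 in the authors' deposited table.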

How the data were processed

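Lavage cell RNA of 16 libraries was sequenced, and each library was assigned to its sex and treatment from its title. The submitters' processing notes name featureCounts 1.5.0-p3, HISAT2 2.0.5, fastp 0.12.2 and DESeq2, and the builds mm9 and mm10 with no role for either. Coordinates of the genes, as deposited, match GRCm38. The authors deposited raw counts per gene, FPKM values whose constant per library is not defined, and tables of log2 fold changes and p-values of their own comparisons. Unused columns numbered 0.

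Counts were filtered with filterByExpr (minimum count 10), scaled by TMM factors (0.899 to 0.946 in bleomycin males, 0.864 to 1.03 in bleomycin females, 1.06 to 1.10 in saline males, 1.05 to 1.10 in saline females) and fitted with 1 coefficient per group in edgeR 4.0.16 (R 4.3.3), whose quasi-likelihood test was tested on simulated data. The simulation changed far fewer genes than were called here, equally up and down, so it did not test the scaling under a change this wide. P-values were adjusted by Benjamini-Hochberg over 15257 genes and called below 0.05. Ratios of FPKM were compared by exact permutation tests (70 arrangements). Alternatives were DESeq2 1.42.0, limma voom (limma 3.58.1), library totals, other filters, only the groups compared, FPKM + 1, relations centred by sex, and each library left out; a fit without C33, C49 and C50 was added after the data were seen. Words of 50 bases were compared between GENCODE M21 transcripts. Named were the 10 genes, the 4 largest changes of each pathway list and the 3 genes most like each of the 10 (1 of these is not reported here); single genes that fell or stood still in a list, and Ctss, Cd4, Lag3 and March1, were named after their values were seen. The 10 genes and the lists were chosen with earlier results of these data known. Intervals of 2 SE and counts cover the spread between these libraries only.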

Additional observations from a re-analysis of the deposited data

Results flagged for a closer look

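In 72 sets of 4 libraries (a gene level or ratio in 1 group) the most distant library was set against the rest, and 2 stood apart; chance marks about 1 in 20. Cd74 in bleomycin females was 3547 CPM in C69, against 2455 to 2563 CPM in the other bleomycin females. H2-DMb1 in saline females was 164 CPM in C77, against 121 to 126 CPM in the other saline females. These are given as values.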

How the results depend on the processing

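No paired analysis was possible because the groups share no replicate numbers in the labels. The counts of the 10 genes risen and fallen under bleomycin were 9 and 1 in males, 8 and 1 in females and 9 and 1 over the sexes under DESeq2, limma voom and both other filters, and 8 risen in males and over the sexes with library totals alone, where H2-DMb2 lost its call. Leaving out 1 library gave 0 to 1 genes fallen in males. H2-DMb2 in females was called without C68 (0.54, adjusted p = 0.0385) or without C77 (0.56, adjusted p = 0.0414).

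The interaction called 1 gene of all, 0 with library totals, with limma voom or with at least 1 CPM in 4 libraries, 15 without a filter, 23 by DESeq2, 77 without C33, C49 and C50, and 0 to 1 with 1 library left out. Bleomycin males against females gave 9 genes, 14 without a filter, and 670 without C33, C49 and C50, where 1 of the 10 genes was higher. Saline males against females gave 41 genes, 119 without a filter, 177 by DESeq2, 764 with only the groups compared and 20 to 35 with 1 library left out. The cause was not tested. The ratio calls numbered 10 with FPKM + 1 as well, and the relations that passed numbered 6, and 7 with each sex centred on its own mean. In saline libraries H2-Ob rests on 6 to 20 counts, which limits the precision of its fold change.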
